A study of Homo sapiens with 6 samples.

Results

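The genes described here encode the fatty acid transport proteins (SLC27A1 to SLC27A5) and the long chain acyl-CoA synthetases (ACSL1, ACSL3, ACSL4 and ACSL5). They were chosen by name, 9 in all, and each was read from the probe set that carries its symbol alone and has the highest mean over the 6 arrays. Of these, 8 were measured, out of 18417 genes compared. ACSL3 is not in the table of named probe sets and was not analysed here. Each of the 8 had 1 such probe set, so the choice by highest mean decided nothing.

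RNA came from 3 near isogenic human cell lines that model stepwise transformation, with 2 biological replicates of each line on Affymetrix Gene ST arrays. BJ cells are primary fibroblasts of human foreskin. BJEL cells are BJ cells that received hTERT, the catalytic part of telomerase, and the SV40 early region, which encodes the large T and small t antigens, and they were kept in G-418 and hygromycin. BJELM cells are BJEL cells with MYC-ER, a MYC protein fused to a hormone-binding domain and delivered by a pBabe retrovirus, and they were kept additionally in puromycin and without interruption in 4-hydroxytamoxifen, so that the introduced genes and these additions cannot be told apart. All were grown in DMEM and M199 medium with fetal calf serum. The sources do not say that the replicates were separate cultures, so the p-values measure only the spread between these samples.

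Long chain fatty acids must be joined to coenzyme A before a cell can oxidize them, build them into lipids or lengthen them. The ACSL enzymes carry out this activation at the endoplasmic reticulum, mitochondria and lipid droplets. The SLC27 proteins promote the uptake of fatty acids and also activate them, with a preference of some members for very long chains or bile acids. Expression of both families is best known from liver, fat, muscle and skin, and differs from member to member.

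Signals are log2 values on which a difference of 1 is a 2-fold change, and they are compared between lines within a gene, never between genes. A gene is said to have risen or fallen where limma gave an adjusted p under 0.05 over all 18417 genes and the change was at least 2-fold. Differences are given ± SE with 2 arrays per line. The comparisons share arrays (BJ serves in 2 of them, as do BJEL and BJELM), so their values are not independent of each other.

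As a check of the labels, TERT read 7.77 and 7.88 on the BJ arrays, 10.71 and 10.97 on the BJEL arrays, and 10.84 and 10.78 on those labelled BJELM. MYC read 9.47 and 9.61 in BJ, 10.22 and 10.12 in BJEL, and 9.57 and 8.90 on the arrays labelled BJELM. The MYC probe set therefore ran counter to the label BJELM, at -0.93 ± 0.21 relative to BJEL (adjusted p = 0.0444). Whether this probe set reads RNA of the introduced MYC-ER was not tested. Every direction below is one between arrays so labelled. The study also examined MYC in these lines by other assays, which were not analysed here. CCND2, which encodes cyclin D2 and is a known MYC target, stood at 10.75 and 11.08 on the arrays labelled BJELM, against 5.16 to 5.95 on the other arrays. Fibroblast markers moved with the lines as well. The mean log2 signal over 12 fibroblast markers was 11.18 to 11.38 in BJ, 9.45 to 9.51 in BJEL and 8.92 to 9.46 on the arrays labelled BJELM. In RNA of whole cultures, fewer cells of a type and less RNA per cell cannot be told apart.

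SLC27A2 was the member that rose, and it did so on the arrays labelled BJELM against both other lines. SLC27A4 was higher there by less than 2-fold, and SLC27A1, SLC27A3 and ACSL5 were lower than in BJ, also by less than 2-fold. ACSL1 was lower in BJEL than in either other line by less than 2-fold. SLC27A5 and ACSL4 did not pass the test in any comparison of the fit without a replicate block.

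**Figure D1:**
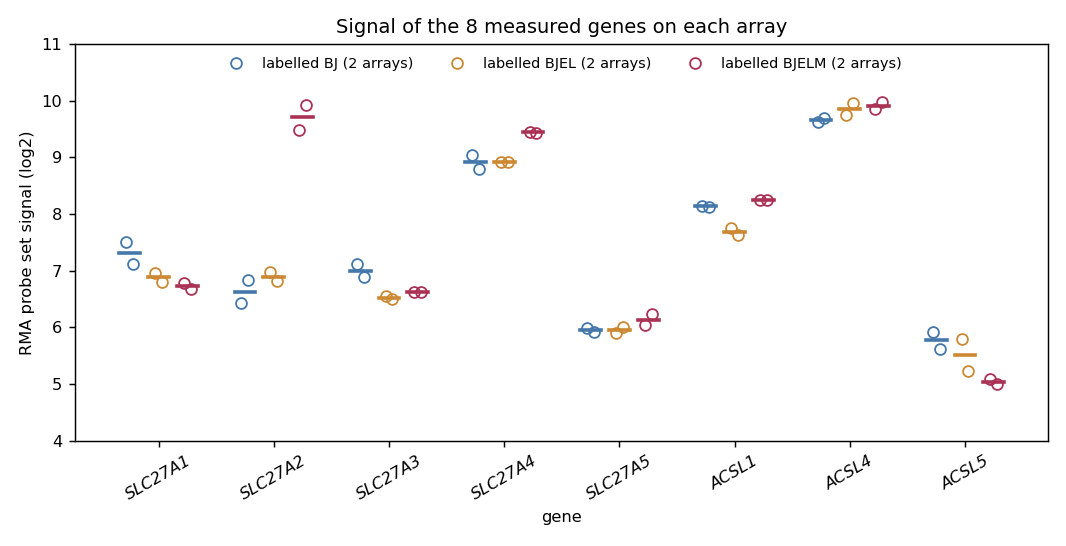
Log2 signal (vertical axis) of the 8 measured genes, set side by side along the horizontal axis; open circles are single arrays, bars the means of the 2 arrays of a line, and colors the labels BJ, BJEL and BJELM. SLC27A2 reads 9.49 and 9.92 on the arrays labelled BJELM and 6.43 to 6.98 on the others, while the 3 lines lie within 1 log2 unit of each other in the other 7 genes.

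Counted over the family, 0 of 8 members were called in BJEL against BJ, where 5.18% of all genes were called. The methods' t-test for unequal variances also called 0 of 8 there. In BJELM against BJ 1 of 8 members was called, where the share of all genes was 8.79%, and in BJELM against BJEL 1 of 8, where it was 2.68%. The single call was SLC27A2 both times, and genes that rose made up 4.09% and 0.923% of all genes. At unadjusted p under 0.05 alone limma counted 3, 5 and 3 of 8 members, beside 30.6%, 37.3% and 25.4% of all genes. With 8 genes, 1 call is too few to set the family apart from that background.

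Without the 2-fold minimum, limma's adjusted p was under 0.05 for 2 of 8 members between BJEL and BJ, beside 17.5% of all genes. Both were lower in BJEL, as were 7.13% of all genes. Between the arrays labelled BJELM and BJ it was 5 of 8 (28.2% of all genes), of which 2 were higher and 3 lower (15.1% and 13.1% of all genes). Between the arrays labelled BJELM and BJEL it was 3 of 8 (10.8%), each of them higher, as were 4.53% of all genes. Leaving out 1 array at a time moved these counts to between 0 and 2, between 1 and 4 and between 1 and 3, and each of the differences below 2-fold lost the test without at least 1 of the arrays compared. The median difference of the 8 members was -0.13 between BJEL and BJ, and 0.15 on the arrays labelled BJELM relative to either other line. Over all genes these medians were -0.02, 0.01 and 0.03.

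**Figure D2:**
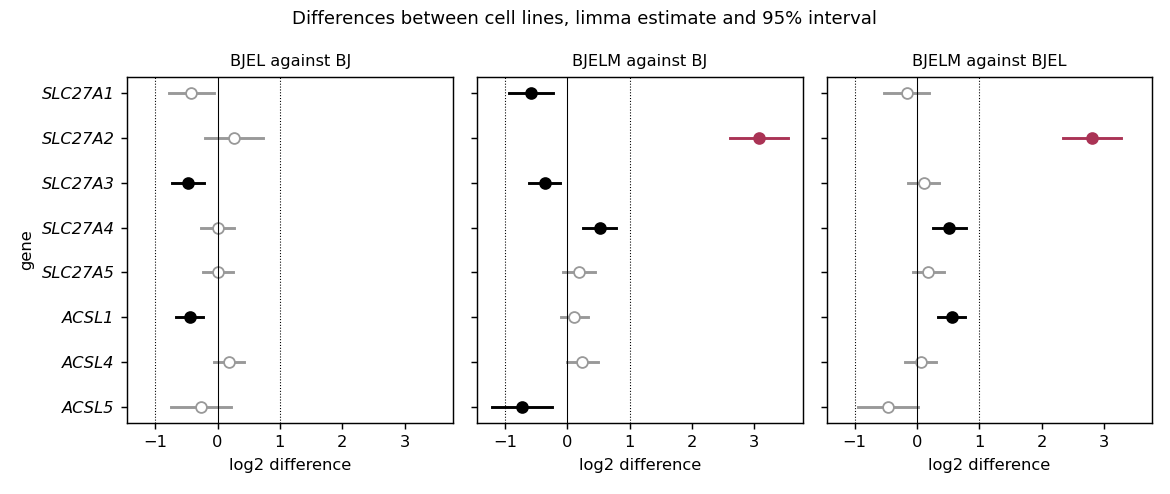
Difference in log2 signal between lines (horizontal axis) for the 8 measured genes (vertical axis) in 3 panels, 1 per comparison; points are limma estimates, bars 95% intervals, and dotted lines mark 2-fold. Colored points passed the test and the 2-fold minimum, black points passed the test alone and open grey points did not pass; SLC27A2 lies at 3.07 in the middle panel and at 2.81 in the right one.

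SLC27A2 (Entrez 11001, probe set 7983650, chromosome 15) encodes FATP2, an acyl-CoA synthetase of very long chain fatty acids in peroxisomes and the endoplasmic reticulum that is abundant in liver and kidney. Its signal was 6.43 and 6.83 in BJ, 6.98 and 6.81 in BJEL, and 9.49 and 9.92 on the arrays labelled BJELM. Both arrays labelled BJELM were above all 4 others, and the BJ and BJEL arrays overlapped. The means were 6.63 ± 0.283, 6.90 ± 0.121 and 9.71 ± 0.305 (SD, n = 2).

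SLC27A2 was 8.41-fold higher on the arrays labelled BJELM than in BJ, a rise of 3.07 ± 0.19 (adjusted p = 0.000289, 95% interval 2.61 to 3.54). Against BJEL it rose by 2.81 ± 0.19, or 7.0-fold (adjusted p = 0.00181, interval 2.34 to 3.27). Between BJEL and BJ the difference was 0.26 ± 0.19 (adjusted p = 0.42), with an interval from -0.20 to 0.73. When each array was left out in turn, the rise against BJ lay between 2.86 and 3.29 with an adjusted p of at most 0.00275. The rise against BJEL lay between 2.59 and 3.02 with an adjusted p of at most 0.0161. Under the methods' t-test, which uses the 4 arrays of a comparison alone, SLC27A2 passed at unadjusted p, and after Benjamini-Hochberg adjustment its p was 0.337 and 0.601 and 0 of 18417 genes were called in any comparison.

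SLC27A2 is abundant in liver and kidney, and no kidney markers were listed. The marker lists of other cell types gave these values beside its rise. The mean over 14 hepatocyte markers was 5.17 to 5.26 on every array, single markers read between 4.06 and 7.26, and 0 of 14 were called by limma in any comparison (1 of 14 in each at unadjusted p). The mean over 9 adipocyte markers was 5.93 to 6.05, with 0 of 9 called (1, 0 and 1 at unadjusted p). Epithelial (8 genes) and endothelial (8 genes) markers had 0 called as well, with 1, 1 and 0 and with 2, 2 and 2 at unadjusted p, and their means were 5.71 to 5.83 and 5.67 to 5.85. Of 8 leukocyte markers, with means of 6.10 to 6.31, CD68 alone was called. CD68, which encodes a lysosomal membrane protein, fell by 1.04 ± 0.092 and 1.08 ± 0.092 on the arrays labelled BJELM relative to BJ and BJEL (adjusted p = 0.000751 and 0.0031), the first under 2-fold without BJ replicate 2, at -0.96. Of the 12 fibroblast markers, 9 fell from BJ to BJEL, 11 fell from BJ to the arrays labelled BJELM, and 1 fell between the derived lines. With 1 array left out these counts were 7 to 10, 10 to 11 and 0 to 2, and the methods' t-test without adjustment of p gave 8, 4 and 0. The 1 between the derived lines was FBN1, a microfibril gene, at -1.0 ± 0.13 (adjusted p = 0.00868), and it was not called without BJEL replicate 1 (adjusted p = 0.0598), BJEL replicate 2 (0.0508) or BJELM replicate 2 (-0.84). By contrast VIM, which encodes the filament protein vimentin, read 12.87 to 13.07 on every array. The part of these shifts in the SLC27A2 result was not tested.

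Outside the family, the genes with profiles over the 6 arrays most like that of SLC27A2 lay on other chromosomes. Likeness was the root mean square difference between values centred on each gene's own mean. It was 0.229 for CXADR, an adhesion receptor used by coxsackie- and adenoviruses, 0.229 for the antisense RNA FAM222A-AS1, and 0.231 for QRFPR, a neuropeptide receptor. CXADR (chromosome 21) read 5.72 to 6.35 on the BJ and BJEL arrays and 8.58 and 8.72 on the arrays labelled BJELM. FAM222A-AS1 (chromosome 12) read 4.55 to 4.62, then 7.56 and 7.52. QRFPR (chromosome 4) read 4.32 to 4.54, then 7.08 and 7.24. All 3 genes were thus low on the same 4 arrays, and they rose by 2.76, 2.94 and 2.71 against BJ and by 2.30, 2.97 and 2.73 against BJEL. They were picked for this likeness, so their rise is a description. No background call was made for these signals, and a difference from an array on which a gene lies at background can understate the change, SLC27A2 included.

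**Figure D3:**
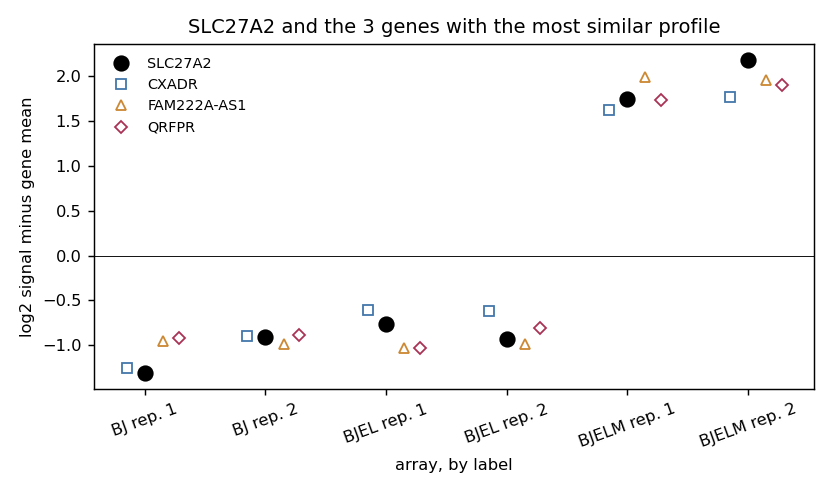
Log2 signal minus the gene's mean over the arrays (vertical axis) on each of the 6 arrays (horizontal axis) for SLC27A2 (black circles) and the 3 genes with the most similar profiles, CXADR, FAM222A-AS1 and QRFPR. All 4 genes lie below their mean on the BJ and BJEL arrays and above it on both arrays labelled BJELM.

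None of the genes next to SLC27A2 on chromosome 15 was called. ATP8B4, a lipid flippase, and HDC, which makes histamine, stood at 0.16 ± 0.079 and -0.01 ± 0.078 in BJELM against BJ (adjusted p = 0.222 and 0.949). DTWD1 and GABPB1, one gene further out on either side, stood at 0.07 ± 0.20 and 0.47 ± 0.13 (adjusted p = 0.866 and 0.0463). In BJEL against BJ, GABPB1 stood at 0.82 ± 0.13 (adjusted p = 0.0108), also under 2-fold. Around the 8 members together, 32 neighbours were measured, 2 on each side. Of these, 1 was called in BJEL against BJ and 0 in the other comparisons. The shares of all genes called were 5.18% (BJEL with BJ), 8.79% (BJELM with BJ) and 2.68% (BJELM with BJEL). Counts this low among 32 genes cannot separate the neighbours from those shares. The called neighbour was CENPU, a centromere gene beside ACSL1, which rose by 1.42 ± 0.19 in BJEL (adjusted p = 0.00551) while ACSL1 itself stood lower.

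SLC27A4 (Entrez 10999, probe set 8158224, chromosome 9) encodes FATP4, a fatty acid transport protein of the endoplasmic reticulum that is needed for the skin barrier. It read 9.04 and 8.79 in BJ, 8.92 and 8.92 in BJEL, and 9.45 and 9.43 on the arrays labelled BJELM. Those last arrays were above all others, and BJ and BJEL overlapped. SLC27A4 was higher by 0.52 ± 0.11 on the arrays labelled BJELM, 1.43-fold against BJ (adjusted p = 0.0136, interval 0.26 to 0.78), and by 0.52 ± 0.11 against BJEL (adjusted p = 0.0325). The first p was 0.0637 without BJ replicate 2 and 0.0511 without BJELM replicate 1, and the second was above 0.05 without any 1 of the BJEL and BJELM arrays, at up to 0.151. BJEL and BJ differed by 0.00 ± 0.11, with an interval from -0.26 to 0.26.

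The promoter windows of SLC27A2 and SLC27A4 are shown because these are the SLC27 members for which the arrays labelled BJELM were higher than both other lines with an adjusted p under 0.05. Each runs from 250 bases before the annotated start to 50 bases after it, 5′ to 3′ on the gene's strand, from RefSeq on GRCh38.p14. Capitals mark the GC box, GGGCGG, on either strand. The windows are chr15:50181946-50182245 (plus strand, 65.0% G and C) and chr9:128340277-128340576 (plus strand, 75.7% G and C), and the median over 35116 RefSeq promoter windows was 58.7%.
SLC27A2: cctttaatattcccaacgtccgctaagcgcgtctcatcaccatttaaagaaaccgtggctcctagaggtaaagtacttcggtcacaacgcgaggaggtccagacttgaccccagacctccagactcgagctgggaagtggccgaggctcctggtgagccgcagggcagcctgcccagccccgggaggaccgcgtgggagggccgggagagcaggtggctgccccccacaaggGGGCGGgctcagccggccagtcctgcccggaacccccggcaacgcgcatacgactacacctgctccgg
SLC27A4: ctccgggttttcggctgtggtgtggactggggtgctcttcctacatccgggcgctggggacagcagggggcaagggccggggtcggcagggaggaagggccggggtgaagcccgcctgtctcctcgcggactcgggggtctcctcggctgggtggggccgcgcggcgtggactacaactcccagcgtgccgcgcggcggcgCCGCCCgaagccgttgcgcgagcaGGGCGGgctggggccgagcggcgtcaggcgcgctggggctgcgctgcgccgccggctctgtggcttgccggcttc
The GC box of SLC27A2 begins 18 bases before the start. SLC27A4 has a pair, 1 on the opposite strand at -49 and 1 on its own strand at -25.

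Across the 9 genes RefSeq gives 14 such windows, since ACSL1 has 5 and ACSL5 has 2. Both strands of each were searched, and a match is a run of letters, not a measured binding site. GGGCGG was present in 8 of 14 member windows and in 45.0% of all windows. CACGTG, the E-box letters that MYC with its partner MAX is known to bind, were in 0 of 14 member windows and in 7.26% of all. CCAAT was in 4 of 14 against 34.6%, and TATAAA in 1 of 14 against 11.5%. TCACNCCAC, a sterol regulatory element, was in 1 of 14, an ACSL1 window, against 1.13%.

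Among the transport proteins lower than in BJ, SLC27A1 (Entrez 376497, probe set 8026763, chromosome 19) encodes FATP1, an insulin-responsive fatty acid transporter of muscle and fat. Its signal was 7.50 and 7.11 in BJ, 6.96 and 6.80 in BJEL, and 6.78 and 6.67 on the arrays labelled BJELM. The lines were in that order without overlap, but neighbours in the order did not pass the test, with -0.42 ± 0.15 for BJEL against BJ (adjusted p = 0.11, or 0.0143 with the replicate number as a block) and -0.16 ± 0.15 for BJELM against BJEL (adjusted p = 0.568). The ends of the order did, at -0.58 ± 0.15 (adjusted p = 0.0296), and that p was 0.124 without BJ replicate 1, 0.0641 without BJELM replicate 1 and 0.113 without BJELM replicate 2.

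SLC27A3 (Entrez 11000, probe set 7905664, chromosome 1) encodes FATP3, which acts mainly as an acyl-CoA synthetase. It read 7.11 and 6.88 in BJ, 6.55 and 6.50 in BJEL, and 6.63 and 6.63 on the arrays labelled BJELM. Both BJ arrays were above the other 4. The difference from BJ was -0.47 ± 0.10 in BJEL (adjusted p = 0.0279) and -0.36 ± 0.10 on the arrays labelled BJELM (adjusted p = 0.0461). Without BJ replicate 1 it was -0.35 and -0.24 (adjusted p = 0.146 and 0.234), the first was also lost without either BJEL array, and the second without any array other than BJ replicate 2. The derived lines differed by 0.11 ± 0.10 (adjusted p = 0.579, interval -0.14 to 0.36).

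SLC27A5 (Entrez 10998, probe set 8039779, chromosome 19) encodes FATP5, the bile acyl-CoA synthetase of liver. Its signal was 5.98 and 5.91 in BJ, 5.90 and 6.01 in BJEL, and 6.04 and 6.23 on the arrays labelled BJELM. The last arrays were above the rest by a small margin, and the difference of 0.19 ± 0.10 from BJ did not pass (adjusted p = 0.248, interval -0.06 to 0.44). Against BJEL it was 0.18 ± 0.10 (adjusted p = 0.339, interval -0.07 to 0.43).

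Of the synthetases, ACSL1 (Entrez 2180, probe set 8103951, chromosome 4) is the main long chain enzyme of fat, heart and liver. It read 8.14 and 8.13 in BJ, 7.76 and 7.62 in BJEL, and 8.24 and 8.25 on the arrays labelled BJELM. BJEL was the low line, below all 4 other arrays. ACSL1 stood at -0.44 ± 0.088 in BJEL against BJ (adjusted p = 0.0198, interval -0.66 to -0.23) and was 1.47-fold higher on the arrays labelled BJELM than in BJEL, at 0.56 ± 0.088 (adjusted p = 0.015, interval 0.34 to 0.77). The first was lost without any 1 of the BJ and BJEL arrays, at up to 0.113, and the second without either BJEL array or BJELM replicate 2, at up to 0.0804. The arrays labelled BJELM and those of BJ differed by 0.11 ± 0.088 (adjusted p = 0.442), with an interval from -0.10 to 0.33.

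ACSL4 (Entrez 2182, probe set 8174474, chromosome X) prefers arachidonic acid and loads membranes with the polyunsaturated lipids that are oxidized in ferroptosis. It read 9.63 and 9.70 in BJ, 9.75 and 9.95 in BJEL, and 9.85 and 9.97 on the arrays labelled BJELM. BJ was lowest, and the derived lines overlapped. No difference passed the test. It was 0.19 ± 0.10 between BJEL and BJ (adjusted p = 0.287), 0.24 ± 0.10 between the arrays labelled BJELM and BJ (adjusted p = 0.144, or 0.0474 with the replicate block, interval -0.01 to 0.49) and 0.06 ± 0.10 between the derived lines (adjusted p = 0.793).

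ACSL5 (Entrez 51703, probe set 7930498, chromosome 10) is a synthetase of the outer mitochondrial membrane, best known from the intestine. Its signal was 5.92 and 5.62 in BJ, 5.79 and 5.23 in BJEL, and 5.08 and 5.0 on the arrays labelled BJELM. The last arrays were the lowest, and BJ and BJEL overlapped. The difference from BJ was -0.73 ± 0.20, or 1.66-fold (adjusted p = 0.0369, interval -1.21 to -0.25), and it was lost without any 1 of the BJ and BJELM arrays, at up to 0.186. Against BJEL it was -0.47 ± 0.20 (adjusted p = 0.205, or 0.0275 with the replicate block), and in BJEL against BJ -0.26 ± 0.20 (adjusted p = 0.436). ZDHHC6, a palmitoyltransferase gene that overlaps ACSL5 on the chromosome, stood at 0.78 ± 0.13 in BJELM against BJ (adjusted p = 0.00726) without reaching 2-fold, opposite to ACSL5.

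Separation of the groups alone is common on these arrays. The BJ and BJEL arrays did not overlap for 4 of 8 members, against 61.2% of all genes. For BJELM against BJ it was 8 of 8 members against 60.5%, and for BJELM against BJEL 7 of 8 against 52.8%.

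The closest relatives of these genes showed no difference that passed the test. SLC27A6, the remaining fatty acid transport protein, read between 4.68 and 4.88 on all arrays. ACSL6, a synthetase of brain, read between 5.51 and 5.58. The bubblegum-type synthetases ACSBG1 and ACSBG2 read between 5.15 and 5.59 and between 4.68 and 4.78. For these 4 genes the differences between lines lay from -0.08 to 0.11, and 0 of 4 passed with limma in any comparison, at adjusted or unadjusted p. All 4 read below the median gene level of 7.26, and no background call was made. If they lay at background, a difference could go unseen.

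Beyond the family, 129 further genes in 10 lists covered the supply and use of fatty acids. Of them 1 rose and 3 fell between BJ and BJEL (3.10% called). On the arrays labelled BJELM 6 rose and 6 fell relative to BJ (9.30%), and 3 rose and 3 fell relative to BJEL (4.65%). These shares stand beside 5.18%, 8.79% and 2.68% of all genes. In what follows, 3 values for a list stand for BJEL with BJ, BJELM with BJ and BJELM with BJEL, in this order. Called genes took part in synthesis, in the carnitine shuttle, in peroxisomal oxidation, in esterification and in gene regulation.

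**Figure D4:**
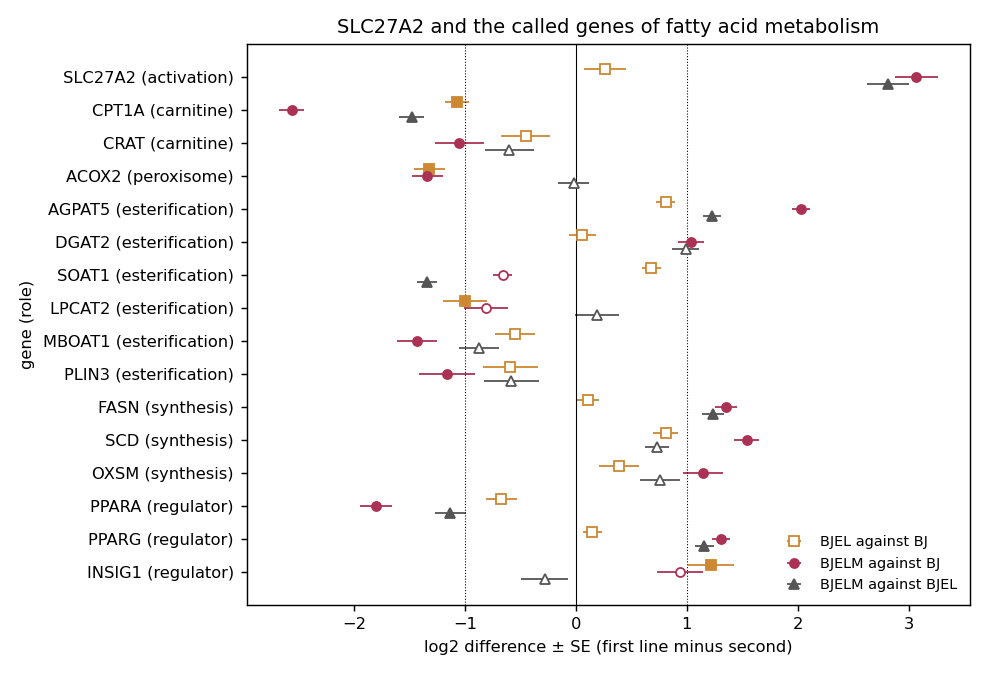
Difference in log2 signal ± SE (horizontal axis) of SLC27A2 and the called genes of fatty acid metabolism (vertical axis, role in brackets) in the 3 comparisons; filled symbols passed the test and the 2-fold minimum, and dotted lines mark 2-fold. On the arrays labelled BJELM the synthesis genes FASN and SCD lie above their BJ level and the carnitine shuttle gene CPT1A lies below it, at -2.56.

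Fatty acid synthesis had the highest list medians, at 0.12, 0.61 and 0.48 in the 3 comparisons. Of 9 measured genes, 0 were called in BJEL (3 at unadjusted p in limma), while on the arrays labelled BJELM 3 rose relative to BJ and 1 relative to BJEL, and none fell by 2-fold. By limma's adjusted p alone, 1, 5 and 4 genes were higher and 1 was lower in each comparison. Together these were 2, 6 and 5 of 9, beside 17.5%, 28.2% and 10.8% of all genes. The lowest difference was that of SCD5 each time, at -0.35, -0.89 and -0.54. FASN, the fatty acid synthase, read 8.93 and 9.12 in BJ, 9.08 and 9.18 in BJEL, and 10.36 and 10.39 on the arrays labelled BJELM. Those arrays were the high ones, and FASN rose by 1.35 ± 0.099 against BJ (adjusted p = 0.000467) and by 1.24 ± 0.099 against BJEL (adjusted p = 0.00249). SCD, which desaturates stearate to oleate, read 10.11 and 10.32, then 11.09 and 10.97, then 11.67 and 11.84. Its order was BJ, BJEL, BJELM without overlap, and against BJ it rose by 1.54 ± 0.11 on the arrays labelled BJELM (adjusted p = 0.000482). OXSM, of mitochondrial fatty acid synthesis, rose by 1.15 ± 0.18 (adjusted p = 0.0058), and without BJ replicate 1 or BJELM replicate 2 it stood at 0.93 and 0.97, under 2-fold.

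The carnitine shuttle moves activated fatty acids into mitochondria, and its list medians were -0.27, -0.35 and -0.60. Of 7 measured genes, 1 fell in BJEL relative to BJ, and on the arrays labelled BJELM 2 fell relative to BJ and 1 relative to BJEL. By limma's adjusted p alone, 2, 3 and 3 of 7 genes passed, beside 17.5%, 28.2% and 10.8% of all genes. Those in the comparisons with BJ were all lower. On the arrays labelled BJELM relative to BJEL, 1 gene was higher and 2 were lower. SLC25A20 was the higher one, by 0.91 and so under 2-fold. It read 8.50 and 8.04 in BJ, 7.61 and 7.36 in BJEL, and 8.35 and 8.44 on the arrays labelled BJELM. CPT1A, the rate-limiting enzyme of mitochondrial fatty acid oxidation, read 9.55 and 9.35 in BJ, 8.47 and 8.28 in BJEL, and 6.90 and 6.89 on the arrays labelled BJELM. It was stepwise lower along the 3 lines, and no line overlapped another. CPT1A fell by 2.56 ± 0.11, or 5.88-fold, against BJ (adjusted p = 0.000113) and by 1.48 ± 0.11 against BJEL (adjusted p = 0.00211). In BJEL against BJ it fell by 1.07 ± 0.11 (adjusted p = 0.00246), a call that slipped under 2-fold without BJ replicate 1 (-0.97) or BJEL replicate 2 (-0.98). CRAT, carnitine acetyltransferase, fell by 1.05 ± 0.22 in BJELM against BJ (adjusted p = 0.0164), and without BJ replicate 1 or BJELM replicate 2 it was no longer called, at -0.91 and -0.71.

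None of the 17 genes of mitochondrial beta-oxidation was called by limma in the fit to all 6 arrays. At unadjusted p limma counted 6, 10 and 3 of 17, beside 30.6%, 37.3% and 25.4% of all genes. At adjusted p without the 2-fold minimum it counted 0, 6 and 1, beside 17.5%, 28.2% and 10.8%. Of the 6, 3 were higher and 3 lower. Of 9 genes of peroxisomal oxidation and import, 1 fell in both comparisons with BJ. This was ACOX2, the oxidase of branched fatty acids and bile acid intermediates, which read 7.06 and 6.81 in BJ, 5.46 and 5.76 in BJEL, and 5.57 and 5.61 on the arrays labelled BJELM. BJ was the high line, and the derived lines overlapped. ACOX2 fell by 1.32 ± 0.14 in BJEL (adjusted p = 0.00243) and by 1.34 ± 0.14 on the arrays labelled BJELM (adjusted p = 0.00117).

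The list of acyl-CoA esterification and lipid droplets, which holds acyltransferases together with droplet coat proteins and lipases, had medians of 0.00444, -0.05 and -0.06 over 29 measured genes. In BJEL 1 fell relative to BJ. On the arrays labelled BJELM 2 rose and 2 fell relative to BJ, and 1 rose and 1 fell relative to BJEL. By limma's adjusted p alone, 5, 3 and 4 genes were higher and 2, 9 and 5 were lower. In either direction 17.5%, 28.2% and 10.8% of all genes passed. AGPAT5, a lysophosphatidic acid acyltransferase, read 7.87 and 7.86, then 8.64 and 8.70, then 9.86 and 9.94 in BJ, BJEL and BJELM. The lines were in that order without overlap, and AGPAT5 rose by 2.03 ± 0.083 against BJ (adjusted p = 9.93e-05) and by 1.23 ± 0.083 against BJEL (adjusted p = 0.00177). DGAT2, which makes triglyceride, rose by 1.04 ± 0.12 against BJ (adjusted p = 0.00154), and by 0.99 without BJELM replicate 1. SOAT1, which esterifies cholesterol, read 9.14 and 9.08, then 9.83 and 9.75, then 8.49 and 8.39, highest in BJEL and lowest on the arrays labelled BJELM. SOAT1 fell by 1.34 ± 0.087 between these (adjusted p = 0.00161).

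MBOAT1, a lysophospholipid acyltransferase, fell by 1.43 ± 0.18 in BJELM against BJ (adjusted p = 0.00254). PLIN3, a lipid droplet coat protein, fell by 1.16 ± 0.25 in the same comparison (adjusted p = 0.0172), and without BJ replicate 1 or BJELM replicate 2 it was no longer called, at -1.03 and -0.77. LPCAT2, which remakes phosphatidylcholine, fell by 1.00 ± 0.20 in BJEL against BJ (adjusted p = 0.0211). That call stood at the fold limit and was lost without BJ replicate 1, BJEL replicate 1 or BJEL replicate 2, at -0.78, -1.18 and -0.82, and with every probe set tested.

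Of 15 measured regulators of lipid genes, 1 rose from BJ to BJEL, and on the arrays labelled BJELM 1 rose and 1 fell relative to each other line. The list medians were -0.03, 0.05 and 0.07. PPARA, the receptor that drives fatty acid oxidation genes in liver, read 7.78 and 7.71 in BJ, 7.15 and 7.01 in BJEL, and 6.13 and 5.76 on the arrays labelled BJELM. It was lower at each step without overlap, and fell by 1.80 ± 0.14 against BJ (adjusted p = 0.000531) and by 1.13 ± 0.14 against BJEL (adjusted p = 0.00746). The second call was lost without BJEL replicate 1 (-1.06, adjusted p = 0.0553) or BJELM replicate 2 (-0.95). PPARG, the receptor of fat cell differentiation, read 7.61 and 7.71, then 7.81 and 7.80, then 8.95 and 8.98. Its high arrays were those labelled BJELM, where it rose by 1.31 ± 0.083 against BJ (adjusted p = 0.000304) and by 1.16 ± 0.083 against BJEL (adjusted p = 0.0019). INSIG1, which holds sterol sensing in the endoplasmic reticulum, rose by 1.22 ± 0.21 in BJEL against BJ (adjusted p = 0.0127). It was not called with BJ replicate 1, BJ replicate 2 or BJEL replicate 1 left out, at 1.27, 1.16 and 0.91.

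Other routes into and out of the acyl-CoA pool had no called gene with limma. These were 11 short and medium chain synthetases (0, 4 and 3 at unadjusted p), 16 uptake and binding proteins (1, 7 and 4) and 12 acyl-CoA thioesterases (0, 3 and 3), which free fatty acids from coenzyme A. The shares of all genes at unadjusted p were 30.6%, 37.3% and 25.4%. Their list medians lay between -0.11 and 0.02. The largest single difference in these lists was 0.99, for a thioesterase gene in BJELM against BJ, just under the 2-fold minimum. At unadjusted p, the methods' t-test did not call CRAT, ACOX2, MBOAT1, PLIN3, OXSM and PPARA in BJELM against BJ, PPARA in BJELM against BJEL, or LPCAT2 and INSIG1 in BJEL against BJ, and it called the other genes named above as having risen or fallen in these pathways.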

How the data were processed

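Total RNA of 3 cell lines was hybridized to 6 arrays. The log2 signals were deposited by the authors, who ran RMA (Affymetrix Expression Console 1.3.1 in the submitters' processing notes), which corrects background, equalizes the array distributions and summarizes each probe set. The table holds 33297 probe sets, of which 19460 carry 1 gene symbol, 1754 several, and 12083 are unnamed here. The probe set with the highest mean stood for a gene, giving 18417 genes, with 18389 matched to RefSeq (GRCh38.p14). Array medians were 6.37 to 6.46. Precision is limited by the number of arrays.

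limma 3.58.1 in R 4.3.3 fitted a mean per line to all 6 arrays (3 residual and 3.13 prior degrees of freedom, two-sided, Benjamini-Hochberg over all genes). The script was tested on simulated data. Alternatives left out each array, fitted 2 lines or a replicate block, renormalized, changed prior, filters or thresholds, tested every probe set, or used the methods' t-test for unequal variances, without the study's modification. The gene list, the related lists and the tests were chosen with earlier results of these data known. Named genes were all members and their 4 relatives, up to 4 called genes per list and comparison, TERT, MYC, CCND2 and the 3 closest profiles to a called member. CD68, VIM, FBN1, SLC25A20, SCD5 and neighbouring genes were named outside that rule, after their values were seen.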

Additional observations from a re-analysis of the deposited data

How the results depend on the processing

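The 2-fold calls among the 8 members kept their number, 0 between BJEL and BJ, 1 between BJELM and BJ and 1 between BJELM and BJEL, under each array left out (0 to 0, 1 to 1 and 1 to 1), with only the compared lines fitted, after either renormalization, with a trended robust prior, with every probe set tested and in the methods' t-test without adjustment of p. Filters on dim genes left out SLC27A1, SLC27A3, SLC27A5 and ACSL5 (mean at or above the median gene) or ACSL5 (a line mean of 6 or more). Without a fold minimum the counts were 2, 5 and 3. Also without it, they were 1, 2 and 2 with every probe set tested, and 2, 4 and 3 after median centring or with the trended robust prior. At a minimum of 1.5-fold the counts of the main fit were 0, 2 and 1, with ACSL5 added in BJELM against BJ. The methods' t-test with Benjamini-Hochberg adjustment called 0 in every comparison, and 0 of all genes. Over all genes, the methods' t-test at unadjusted p called 465, 880 and 231 against 954, 1619 and 494 with limma. Without a fold minimum limma called 3228, 5195 and 1992, and at 1.5-fold 2110, 3562 and 1345. The cause of these differences was not tested, apart from the thresholds themselves.

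With the replicate number as a block, 0, 1 and 1 members were called, and 3, 6 and 4 without the fold minimum, which adds SLC27A1 between BJEL and BJ, ACSL4 between BJELM and BJ and ACSL5 between BJELM and BJEL (adjusted p = 0.0143, 0.0474 and 0.0275). The deviations of same-numbered arrays correlated at 0.448, 0.481 and 0.553 between pairs of lines, but each comparison holds 2 pairs and the labels do not say what a number marks, so the reported fit has no block.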
